A study of Mus musculus with 20 samples.

Results

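Polyadenylated RNA from the female mouse embryonic stem cell line PGK was set against that from the male line E14 at day 4 of their conversion to epiblast stem cells, over the genes of chromosomes 1 to 19. Of 23361 rows in the deposited count tables, 22124 were placed on an autosome, and 15019 of these passed the filter on low counts and were tested. Cells of both lines were kept in 2i, which holds them in the naive state, and were then plated on fibronectin in N2B27 with activin A and Fgf2. The day 4 libraries are 4 of 20 in the series, 2 of PGK and 2 of E14. The labels name the differentiation experiments diff2 and diff3 in each line. They do not say whether the lines were differentiated side by side. The labels name no genotype beyond line and sex, and with 1 line of each sex the effects of sex and of line cannot be told apart.

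In 2i, inhibitors of MEK and Gsk3 sustain a set of transcription factors, among them Esrrb, Klf4, Tfcp2l1 and Nanog, that support one another's expression. When the inhibitors are withdrawn and activin and FGF are supplied, these factors are shut off, the cells pass through a formative state marked by Fgf5, Otx2 and the de novo DNA methyltransferases, and they settle in a primed state that resembles the epiblast after implantation. Primed cells can start primitive streak genes such as T when Wnt and Nodal signals are present, and the pace at which the naive genes disappear is the usual measure of how fast cells leave the first state.

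Total counts at day 4 were 14258147 and 21897124 in PGK diff2 and diff3, and 13580815 and 2020254 in E14 diff2 and diff3. A floor of 3 counts therefore corresponded to 0.21 and 0.137 CPM, a count scaled to its library's total, in PGK and to 0.221 and 1.48 CPM in E14. The E14 diff3 library at day 0 was shallow as well, with 3376500 counts and 10007 autosomal genes detected, against 15129 to 15415 in the other day 0 libraries. Libraries of 1 line differed by far more than sampling noise (chi-square per degree of freedom of 91 in PGK and 37.2 in E14), so none was a copy of another. Pearson r across genes was 0.947 between the PGK libraries and 0.923 between the E14 libraries, while the lines gave 0.961 with each other in diff2 and 0.918 in diff3. In pooled RNA of this kind, fewer cells of a type and less RNA per cell cannot be told apart.

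At day 4, 18 autosomal genes differed between the lines, 17 higher (0.113%) and 1 lower (0.00666%) in PGK, which is 0.12% of those tested (edgeR's quasi-likelihood test, Benjamini-Hochberg adjusted p under 0.05). The higher ones were T, Plagl1, Tfap2c, Gbp3, Grhl3, Ephx2, Ifitm1, Laptm5, Esrrb, Gbp1, Gbp2, Camk1d, Tfpi, Atp11a, S100a10, Exoc6b and Gm10664, and the lower one was Grb10. In each of the 18 the PGK libraries lay on one side of both E14 libraries. At an unadjusted p under 0.05, 657 genes were higher (4.37%) and 294 were lower (1.96%) in PGK, or 6.33% in all. The median log2 fold change over all autosomal genes tested was 0.03. With the experiment as a block, which pairs the libraries of the same experiment, 33 genes passed and all 18 were among them, whereas with the 4 day 4 libraries alone 1 gene passed, which was none of the 18. The count rested on both E14 libraries, since 4 genes passed without E14 diff2 (3 of the 18) and 2 without the shallow E14 diff3 (2 of the 18). Without PGK diff2 19 passed and 8 of the 18 were kept, without PGK diff3 24 passed and 11 were kept, and when both shallow libraries were left out 7 passed, 6 of them among the 18.

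**Figure D1:**
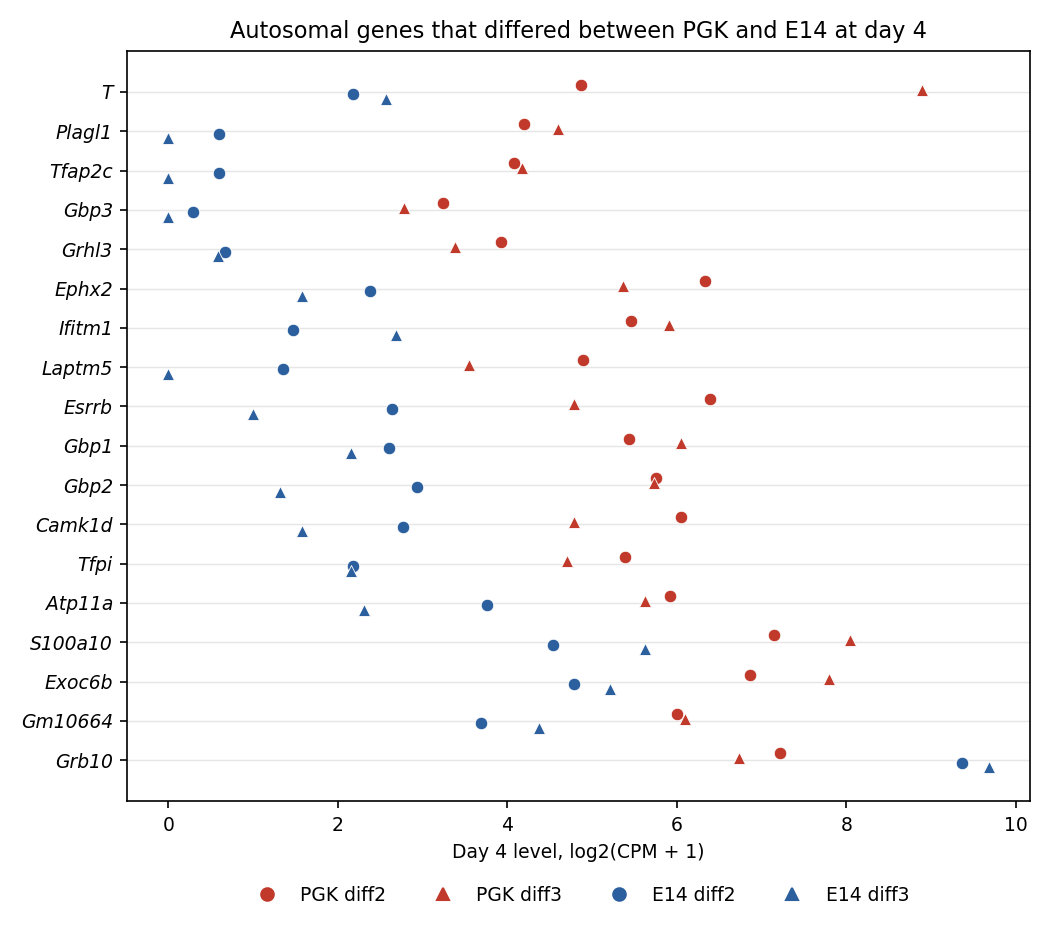
Level of each of the 18 autosomal genes that differed between PGK and E14 at day 4, in log2(CPM + 1), 1 point per library; red marks PGK, blue marks E14, circles diff2 and triangles diff3. In 17 rows both red points lie to the right of both blue points, and in the Grb10 row they lie to the left.

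The naive factors were the group in which PGK stood furthest from E14 among those that define pluripotency. Esrrb, an orphan nuclear receptor of the naive network (chr12:86361117-86521628, plus strand, GRCm38, GENCODE M21), had 82.6 CPM in PGK diff2 and 26.6 CPM in PGK diff3, against 5.23 CPM in E14 diff2 and 0.99 CPM in E14 diff3. The E14 values came from 71 counts in diff2 and 2 in diff3, the latter under the floor of 3. Both PGK libraries were above both E14 libraries, and the diff2 library was the higher one in each line. The log2 fold change was 3.80 (SE 0.64, adjusted p = 0.0157). Esrrb had started from 786 and 1139 CPM in PGK and from 966 and 1603 CPM in E14 at day 0, where the log2 fold change between lines was −0.34 (adjusted p = 0.85). From day 0 to day 4 it therefore fell in both lines, with log2 fold changes of −4.16 in PGK (adjusted p = 0.000226) and −8.31 in E14 (adjusted p = 3.77e-06). The difference of the 2 changes was 4.14 (SE 0.82, adjusted p = 0.0718), which did not pass, and with the experiment as a block it was 4.15 (adjusted p = 0.0355), which passed. By day 10 Esrrb had 9.12 and 6.17 CPM in PGK against 3.16 and 4.93 CPM in E14, a log2 fold change of 0.85 (adjusted p = 1). The day 4 call for Esrrb was lost without PGK diff2 (2.80, adjusted p = 0.0891), without E14 diff2 (5.76, adjusted p = 0.0707) and without E14 diff3 (3.40, adjusted p = 0.218).

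Tfap2c, which encodes the transcription factor AP-2 gamma of naive cells, trophoblast and primordial germ cells (chr2:172549593-172558622, plus strand), had 15.9 and 17.0 CPM in PGK diff2 and diff3. In E14 it had 0.515 CPM in diff2, from 7 counts, and no count in diff3. The groups did not overlap, and the PGK libraries were nearly equal. The log2 fold change was 5.31 (SE 0.94, adjusted p = 0.0247) after −0.42 at day 0 (adjusted p = 0.853). Like Esrrb, Tfap2c fell in both lines from day 0, with log2 fold changes of −2.42 in PGK (adjusted p = 0.0346) and −8.14 in E14 (adjusted p = 5.07e-05), and the difference of these changes was 5.72 (SE 1.15, adjusted p = 0.0747). At day 10 it measured 6.16 and 14.1 CPM in PGK and 9.65 and 3.80 CPM in E14, with overlap between the lines. The call was lost without either E14 library.

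Of the 31 naive factors on autosomes, all of which were tested, only Esrrb and Tfap2c passed, both higher in PGK. Both PGK libraries lay above both E14 libraries in 21 of the 31 (67.7%) and below them in none, while over all autosomal genes the shares were 20.2% above and 14.6% below. Among genes with a mean day 4 level under 10 CPM, where 10 of the 31 lie, the share above was 26.7%. The list's median log2 fold change was 2.10 at day 4, against −0.16 at day 0 and 0.53 at day 10. At an unadjusted p under 0.05, 18 members were higher in PGK and 0 were lower. Without the shallow E14 library, 25 of the 31 lay above E14 diff2 in both PGK libraries and 0 lay below, against 30.6% and 34.3% of all autosomal genes. Within diff2 alone 30 members (96.8%) were higher in PGK, and within diff3 alone 25 (80.65%) were, against 48.35% and 54.98% of all autosomal genes.

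Several of the best known naive genes had large differences that missed the threshold. Klf5, a Krüppel-like factor of the naive network, had 30.7 and 42.1 CPM in PGK against 7.58 and 5.94 CPM in E14 (log2 fold change 2.40, SE 0.47, adjusted p = 0.0505). Tfcp2l1, which links LIF signalling to self-renewal, had 55.6 and 31.6 CPM in PGK against 8.32 and 12.4 CPM in E14 (2.13, SE 0.45, adjusted p = 0.0679). Both had libraries without overlap, and both passed with the experiment as a block. Klf2, a target of the MEK inhibitor's action in 2i, had 45.1 and 10.9 CPM in PGK against 2.06 and 1.98 CPM in E14 (3.76, SE 0.86, adjusted p = 0.0972). Zfp42, better known as Rex1 and widely used to mark the naive state, had 39.7 and 21.4 CPM in PGK against 7.88 and 5.94 CPM in E14 (2.10, adjusted p = 0.371). Tdh, threonine dehydrogenase, on which mouse embryonic stem cells depend for one-carbon units, had 114 and 51.9 CPM in PGK against 14.4 and 1.49 CPM in E14 (3.15, adjusted p = 0.327). In these 5 genes the lowest PGK library was above the highest E14 library. Prdm14, which represses FGF signalling and DNA methylation, was near the floor in E14, with 4.56 and 1.19 CPM in PGK and 0.147 and 0.495 CPM in E14 (3.71, adjusted p = 0.323).

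Klf4 and Nanog differed less, and Tbx3 rested on few counts in E14. Klf4 had 6.03 and 5.71 CPM in PGK against 1.84 and 3.46 CPM in E14 (1.35, adjusted p = 0.296), and it had already lost most of its day 0 level of 282 and 423 CPM in PGK and of 457 and 550 CPM in E14. Tbx3, a T-box factor of naive cells, had 5.54 and 3.65 CPM in PGK against 1.25 and 0.495 CPM in E14 (2.08, SE 0.91, adjusted p = 0.703). Its libraries did not overlap, and the E14 values came from 17 counts and 1 count. Nanog had 161 and 97.1 CPM in PGK against 87.5 and 76.7 CPM in E14 (0.65, adjusted p = 0.861), without overlap. Nanog had log2 fold changes from day 0 of −2.87 in PGK (adjusted p = 0.000168) and −2.89 in E14 (adjusted p = 0.000142), and the difference of the changes was 0.02 (SE 0.53, adjusted p = 1). The LIF pathway genes of the list behaved otherwise again: Stat3, the transcription factor that LIF activates, had 37.1 and 69.2 CPM in PGK and 22.0 and 68.3 CPM in E14, and Socs3, its feedback inhibitor, had 2.81 and 12.7 CPM in PGK and 5.08 and 21.3 CPM in E14. For both genes, named after their values were seen, the diff3 library was the higher one in each line and the lines overlapped.

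The share of its day 0 level that each gene kept was computed within line and experiment for the 7990 autosomal genes with at least 5 CPM in all 4 day 0 libraries. The 29 naive factors that met this limit kept a median of 16.7% in PGK diff2 and 4.79% in PGK diff3, against 1.97% in E14 diff2 and 1.64% in E14 diff3. In 20 of the 29 (69.0%) both PGK shares exceeded both E14 shares, while 21.8% of the 7990 genes did so. Klf5 kept 24.3% and 26.8% in PGK against 4.67% and 2.42% in E14. Klf2 kept 26.1% and 4.79% in PGK against 0.84% and 0.347% in E14. For Klf2 PGK diff2 retained more than PGK diff3, while Klf5 and Tfap2c kept similar shares in both, Tfap2c 17.5% and 20.2%. The mean level of the 31 factors, in log2(CPM + 1), was 7.65 and 7.86 in PGK and 7.80 and 7.79 in E14 at day 0. It was 4.82 and 3.87 in PGK and 2.95 and 2.73 in E14 at day 4. At day 10 it was 3.14 and 2.73 in PGK and 2.80 and 2.66 in E14, which the E14 libraries had thus nearly reached by day 4.

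**Figure D2:**
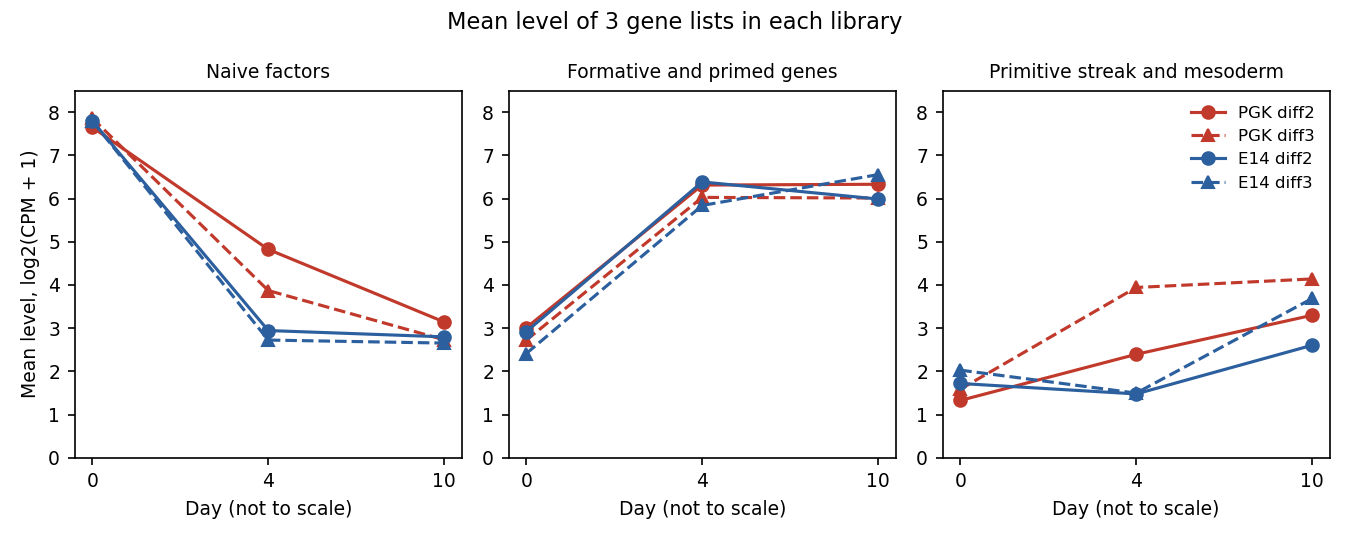
Mean level over the genes of 3 lists, in log2(CPM + 1), at days 0, 4 and 10, 1 line per differentiation experiment; red is PGK, blue is E14, solid lines diff2 and dashed lines diff3. The naive factors separate the lines at day 4 (4.82 and 3.87 in PGK, 2.95 and 2.73 in E14), the formative and primed genes do not (6.31 and 6.03 in PGK, 6.38 and 5.84 in E14), and the streak genes are highest in PGK diff3 (3.94).

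The formative and primed genes had come up in both lines by day 4. None of the 28 passed in either direction, and the median log2 fold change was −0.25. Both PGK libraries lay above both E14 libraries in 4 (14.3%) and below in 8 (28.6%), against 20.2% and 14.6% of all autosomal genes. Without the shallow E14 library, 5 (17.9%) lay above E14 diff2 in both PGK libraries and 13 (46.4%) below, against 30.6% and 34.3%. Within diff2 alone 10 members (35.7%) were higher in PGK, and within diff3 alone 11 (39.3%) were, against 48.35% and 54.98% of all autosomal genes. Fgf5, the ligand that marks the formative state, had 133 and 203 CPM in PGK against 135 and 95.5 CPM in E14 (0.54, adjusted p = 0.948), after at most 1.34 CPM in any day 0 library. Otx2, which drives the exit towards the epiblast, had 110 and 105 CPM in PGK against 132 and 148 CPM in E14 (−0.38, adjusted p = 1). Fgf5 overlapped between the lines and Otx2 was lower in both PGK libraries. The de novo methyltransferases Dnmt3a, with 356 and 183 CPM in PGK and 422 and 306 CPM in E14, and Dnmt3b, with 1471 and 819.6 CPM in PGK and 2222 and 1092 CPM in E14, overlapped as well. Within each experiment, though, both were lower in PGK, and their log2 fold changes were −0.44 (adjusted p = 0.983) and −0.53 (adjusted p = 0.925). Their cofactor Dnmt3l stood apart in 1 library, with 149 CPM in PGK diff2 and 12.1 CPM in PGK diff3, against 15.98 and 0 CPM in E14 (3.22, adjusted p = 0.767).

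The core factors that naive and primed cells share differed little. Pou5f1, or Oct4, had 1270.3 and 1016 CPM in PGK against 1348 and 791 CPM in E14 (0.10, adjusted p = 1). Sox2 had 122 and 41.1 CPM in PGK against 37.6 and 50.5 CPM in E14 (0.89, adjusted p = 0.849), with PGK diff2 alone above the rest. Of the 13 core factors none passed, and the median was 0.19. Without overlap, 4 (30.8%) lay above and 1 (7.69%) below, against 20.2% and 14.6% of all autosomal genes.

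Genes lower or higher at day 10 than at day 0 extended the comparison beyond named factors. Day 10 was set against day 0 over both lines, within the fit of all 20 libraries. The contrast holds no day 4 group. The day 4 libraries still entered the low-count filter, the scaling and the shared estimate of spread, so the sets are not independent of them. By this contrast 1927 autosomal genes were lower at day 10 (12.8%) and 2772 were higher (18.5%). At day 4 the genes that fell by day 10 had a median log2 fold change of 0.27 between PGK and E14, and 65.8% of them were higher in PGK. Both PGK libraries lay above both E14 libraries in 29.2% of them and below in 9.6%. For the genes that rose by day 10 the median was −0.02, 48.3% were higher in PGK, and the shares without overlap were 21.9% above and 19.9% below. Over all autosomal genes 52.6% were higher in PGK, and the shares without overlap were 20.2% above and 14.6% below. From day 0 to day 4 the falling genes had dropped by a median of 1.49 on the log2 scale in PGK and of 1.91 in E14, while the rising genes had gained 1.86 in PGK and 1.95 in E14. The median of the falling genes was 0.00 without PGK diff2, 0.42 without PGK diff3 and 0.62 without E14 diff2, so its size rested on which libraries were used. Within experiments it was 0.24 in diff2 and 0.13 in diff3, as medians of log2(CPM + 1) differences. On this measure all autosomal genes tested gave 0.00 in diff2 and 0.09 in diff3, so the diff3 value was close to that of all genes. The rising genes gave −0.07 in diff2 and 0.07 in diff3.

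**Figure D3:**
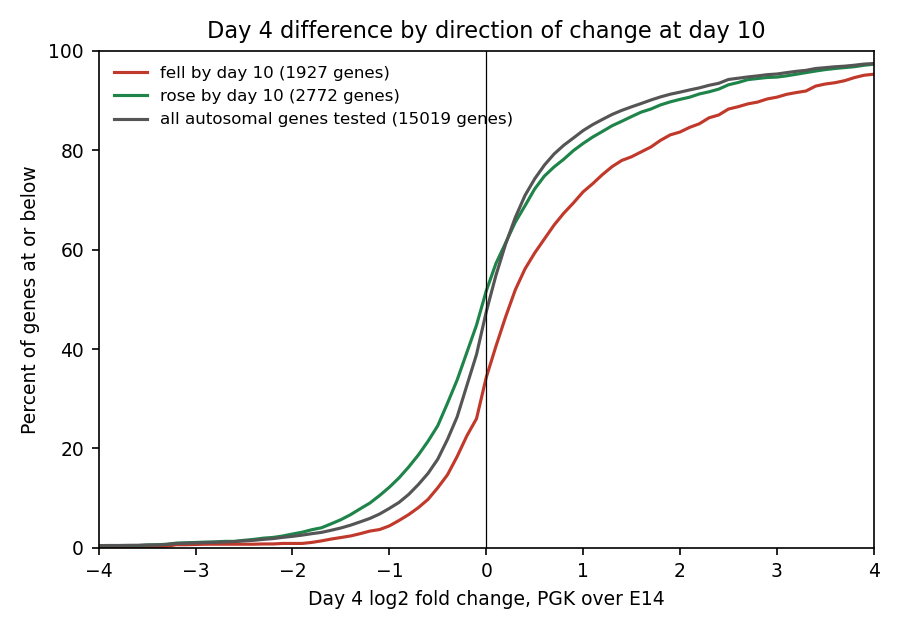
Cumulative share of genes (percent) by their day 4 log2 fold change of PGK over E14, for the 1927 autosomal genes lower at day 10 than at day 0 (red), the 2772 higher at day 10 (green) and all 15019 tested (grey). The red curve runs to the right of the grey one (median 0.27 against 0.03), and the green one crosses 0 close to its middle (median −0.02).

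Primitive streak genes lay higher in PGK, most of all in diff3. T, or Brachyury, the T-box factor of the streak and nascent mesoderm (chr17:8434423-8442496, plus strand), had 28.2 CPM in PGK diff2 and 474 CPM in PGK diff3, against 3.53 CPM in E14 diff2 and 4.95 CPM in E14 diff3. Both PGK libraries were above both E14 libraries, and PGK diff3 stood far above PGK diff2. The log2 fold change was 5.99 (SE 1.09, adjusted p = 0.0296), and without PGK diff3 it was 2.80 (adjusted p = 0.251). The call was also lost without either E14 library, at 5.69 without diff2 and 6.204 without diff3. T rose in PGK from day 0 by 8.21 on the log2 scale (adjusted p = 0.000225), while its change in E14 was −0.51 (adjusted p = 0.791). The difference of the 2 changes was 8.71 (SE 1.495, adjusted p = 0.035), which passed. By day 10 T had 173 and 277 CPM in PGK against 66.9 and 235 CPM in E14 (0.52, adjusted p = 1), with overlap between the lines.

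T was the one member to pass of the 23 streak and mesoderm genes tested out of 24 in the table. In 17 of the 23 (73.9%) both PGK libraries were above both E14 libraries and in 0 below, against 20.2% and 14.6% of all autosomal genes. The median log2 fold change was 3.18, or 2.77 with the 2 genes that had no count in E14 set at their bound. Within each experiment 21 of the 23 (91.3%) were higher in PGK, against 48.35% of all autosomal genes in diff2 and 54.98% in diff3. At an unadjusted p under 0.05, 14 of the 23 were higher. Eomes, the T-box factor that starts mesendoderm, had 57.9 and 196 CPM in PGK against 13.1 and 3.46 CPM in E14 (3.80, adjusted p = 0.21). Sp5, a direct Wnt target, had 6.94 and 63.0 CPM in PGK against 0.221 and 0 CPM in E14 (7.56, adjusted p = 0.10). Mixl1, a homeobox gene of the streak, had 2.45 and 83.5 CPM in PGK against 1.69 and 1.49 CPM in E14 (4.75, adjusted p = 0.399). These 3, named after their values were seen, had PGK libraries above both E14 libraries, with diff3 the higher one each time. Mesp1, a later mesoderm factor, was at 0 in every library but PGK diff3, where it had 6.85 CPM.

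Genes of the Wnt pathway, a list that shares members such as T and Sp5 with the streak list, leaned the same way. Of 25 tested T alone passed, with a list median of 1.09. Both PGK libraries were above both E14 libraries in 13 (52.0%) and below in 1 (4.0%), against 20.2% and 14.6% of all autosomal genes. Axin2, the feedback inhibitor commonly read as a Wnt reporter, had 39.6 and 81.4 CPM in PGK against 13.2 and 2.97 CPM in E14 (2.81, adjusted p = 0.275). Wnt8a, a ligand of the early streak, had 31.4 and 16.4 CPM in PGK against 1.47 and 0.99 CPM in E14 (4.198, adjusted p = 0.0915). Tcf7l1, the repressor that silences naive genes when Gsk3 inhibition ends, had 115 and 43.1 CPM in PGK and 164 and 87.6 CPM in E14 (−0.69, adjusted p = 0.849), with overlap. Among the 21 Nodal and activin genes, by contrast, 5 (23.8%) lay above and 5 (23.8%) below without overlap and the median was −0.25. Of the 16 definitive endoderm genes none passed and 6 (37.5%) were above without overlap, but 15 of the 16 had a mean under 10 CPM, where 26.7% of all genes lie above; the pioneer factor Foxa2 had 3.72 and 21.7 CPM in PGK against 0.221 and 1.98 CPM in E14 (4.47, adjusted p = 0.0972).

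Imprinted genes, which are transcribed from 1 parental allele, are given by parental class. Grb10, an adaptor that restrains insulin and growth factor signalling and is expressed mainly from the maternal allele (chr11:11930508-12038683, minus strand), had 148 and 106 CPM in PGK against 660 and 820 CPM in E14. It was the 1 autosomal gene that passed lower in PGK, with a log2 fold change of −2.54 (SE 0.44, adjusted p = 0.0194). At day 0 Grb10 had 159 and 140 CPM in PGK against 277 and 311 CPM in E14 (−0.91, adjusted p = 0.391). It rose in E14 by 1.39 on the log2 scale by day 4 (adjusted p = 0.0338) and changed by −0.25 in PGK (adjusted p = 0.799), and the difference of the changes was −1.63 (SE 0.59, adjusted p = 0.474), which did not pass. At day 10 it had 349 and 640 CPM in PGK against 736 and 887 CPM in E14 (−0.74, adjusted p = 1), still without overlap. The day 4 call was lost when any of the 4 day 4 libraries was left out, with log2 fold changes of −2.79 to −2.34.

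Plagl1, a zinc finger transcription factor expressed from the paternal allele (chr10:13060504-13131694, plus strand), had 17.4 and 23.3 CPM in PGK, against 0.515 CPM in E14 diff2, from 7 counts, and no count in E14 diff3. Its log2 fold change of 5.60 (SE 0.61, adjusted p = 0.000332) had the smallest p of the 18. Plagl1 was also the only one of the 18 to pass at day 0, with 194 and 240 CPM in PGK against 8.65 and 6.52 CPM in E14 (4.88, adjusted p = 0.000148), and at day 10, with 18.2 and 18.7 CPM in PGK against 0.0832 and 0.196 CPM in E14 (6.81, adjusted p = 2.53e-05). It was thus 1 of 18 genes at day 4 (5.56%), 1 of 51 at day 0 (1.96%) and 1 of 2 at day 10 (50%). The line difference for Plagl1 was present before differentiation, and the gene fell in both lines, with log2 fold changes of −3.42 in PGK (adjusted p = 0.000159) and −4.15 in E14 (adjusted p = 0.000262). It passed without each day 4 library in turn.

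Over the 35 paternally expressed genes tested, of 37 in the table, Plagl1 alone passed. In 21 (60.0%) both PGK libraries were above both E14 libraries and in 1 (2.86%) below, against 20.2% and 14.6% of all autosomal genes. A mean day 4 level under 10 CPM, where 26.7% of genes lay above, was found for 14 of the 35. The list's median log2 fold change was 1.07 at day 4 and 0.80 at day 0, where the median over all autosomal genes was 0.12. Peg10, a retrotransposon-derived gene needed for the placenta, had 604 and 514 CPM in PGK against 31.1 and 52.0 CPM in E14 (3.77, adjusted p = 0.0591). Peg3, a zinc finger gene, had 314 and 658 CPM in PGK against 87.5 and 76.7 CPM in E14 (2.57, adjusted p = 0.136). Impact, a regulator of translation under amino acid stress, had 424 and 451 CPM in PGK against 154 and 179 CPM in E14 (1.40, adjusted p = 0.0679). All 3, named after their values were seen, were above E14 in both PGK libraries. Igf2, the growth factor, went the other way, with 3.44 and 7.49 CPM in PGK and 4.27 and 33.7 CPM in E14 (−1.61, adjusted p = 0.798), and overlapped.

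The 32 maternally expressed genes tested had no common direction, with 8 (25%) above and 10 (31.2%) below without overlap and a median of 0.17. Over all autosomal genes 20.2% lay above and 14.6% below. Cdkn1c, an inhibitor of cyclin-dependent kinases, had 2.60 and 2.42 CPM in PGK against 19.3 and 19.3 CPM in E14 (−2.94, adjusted p = 0.421). H19, a long noncoding RNA, had 25.6 and 24.8 CPM in PGK against 0.589 and 1.98 CPM in E14 (4.83, adjusted p = 0.0918). Both were without overlap and in opposite directions. Slc22a3, a cation transporter, had 0.771 and 1.005 CPM in PGK against 17.0 and 26.2 CPM in E14 (−4.58, adjusted p = 0.462), after a log2 fold change of −3.998 at day 0. Which parental allele was read, and how each line's imprints stand, was not measured by these counts.

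**Figure D4:**
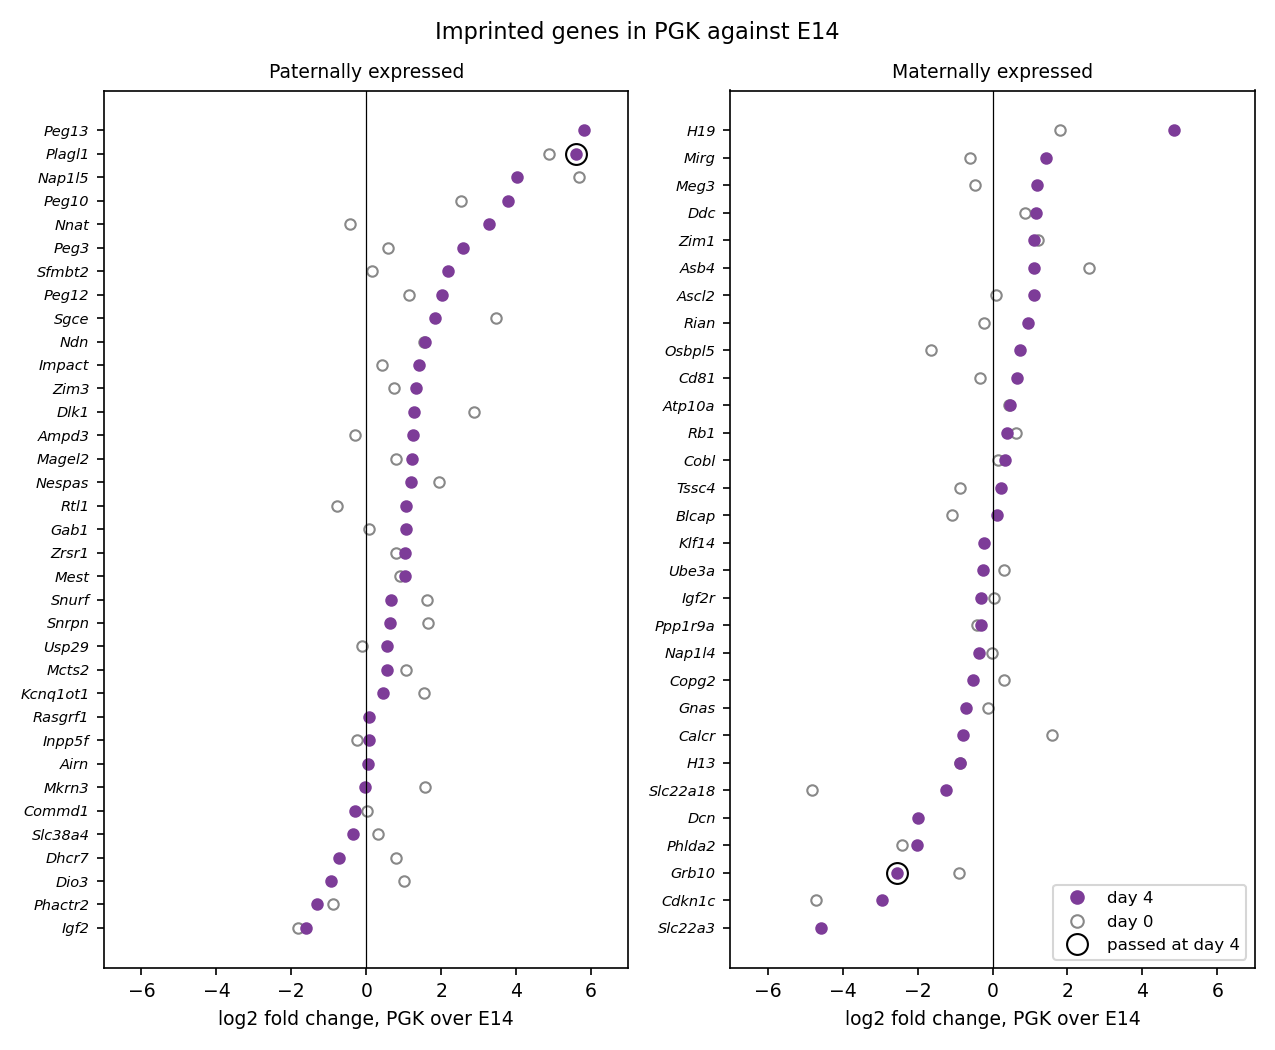
Log2 fold change of PGK over E14 for imprinted genes, paternally expressed genes on the left and maternally expressed genes on the right; filled points are day 4, open points day 0, and rings mark Plagl1 and Grb10, which passed at day 4. Genes without counts in a line are left out. Most filled points on the left lie above 0 (median 1.07), those on the right lie on both sides.

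3 guanylate-binding proteins, GTPases that interferons induce and that attack intracellular pathogens, passed higher in PGK. They were named because they passed, and no list of the family was counted. Gbp2 (chr3:142620602-142638008, plus strand) had 53.2 and 51.9 CPM in PGK against 6.63 and 1.49 CPM in E14, with a log2 fold change of 3.46 (SE 0.47, adjusted p = 0.0037). Gbp1, which RefSeq now calls Gbp2b, had 42.3 and 65.4 CPM in PGK against 5.08 and 3.46 CPM in E14 (3.59, SE 0.54, adjusted p = 0.00833). Gbp3 had 8.42 and 5.89 CPM in PGK and 0.221 and 0 CPM in E14, from 249 counts in PGK and 3 in E14, a ratio of pooled CPM of 35.8 with a 95% counting interval of 12.1 to 175 (adjusted p = 0.038). None of the 3 overlapped between the lines. They are neighbouring paralogs on chromosome 3, and whether reads shared between them were split or dropped is unknown. Gbp2 and Gbp1 were at or under 0.821 CPM in all day 0 libraries and rose in both lines by day 4, Gbp2 by 8.35 on the log2 scale in PGK (adjusted p = 7e-07) and by 3.08 in E14 (adjusted p = 0.00202), with a difference of 5.27 (SE 0.93, adjusted p = 0.0418) that passed. At day 10 Gbp2 had 143 and 104 CPM in PGK against 227 and 135 CPM in E14 (−0.56, adjusted p = 1), so the levels of both lines were higher still and overlapped. Gbp2 passed without each day 4 library in turn, whereas Gbp1 was lost without either E14 library and Gbp3 without any one of the 4.

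The promoters of these genes are shown because the 3 moved together and hold the same short motif. Each window runs from 250 bases before the start of the gene to 50 after it and is read 5′ to 3′ on the plus strand of chromosome 3 (RefSeq, GRCm38.p6): Gbp1 at chr3:142594597-142594896, Gbp2 at chr3:142620413-142620712 and Gbp3 at chr3:142559794-142560093. Capitals mark matches on either strand to the core of the interferon response element, GAAA repeated after 2 bases, of which Gbp3 has 2 that overlap. In Gbp1 capitals also mark GGATTA, the core bound by Otx2, near the start of the window, and in Gbp2 they also mark GGGNGTGG, bound by Klf4, near the start of its window.
Gbp1: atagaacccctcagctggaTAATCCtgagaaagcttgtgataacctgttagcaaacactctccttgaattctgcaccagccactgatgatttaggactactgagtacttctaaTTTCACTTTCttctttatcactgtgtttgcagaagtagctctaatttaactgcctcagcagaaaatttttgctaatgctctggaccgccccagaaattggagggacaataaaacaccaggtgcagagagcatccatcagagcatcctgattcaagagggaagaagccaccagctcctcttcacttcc
Gbp2: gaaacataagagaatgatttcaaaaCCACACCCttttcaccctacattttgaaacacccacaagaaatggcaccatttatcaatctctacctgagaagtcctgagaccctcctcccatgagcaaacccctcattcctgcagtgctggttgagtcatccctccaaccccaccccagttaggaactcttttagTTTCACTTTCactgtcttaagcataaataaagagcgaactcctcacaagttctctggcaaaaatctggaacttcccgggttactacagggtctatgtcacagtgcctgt
Gbp3: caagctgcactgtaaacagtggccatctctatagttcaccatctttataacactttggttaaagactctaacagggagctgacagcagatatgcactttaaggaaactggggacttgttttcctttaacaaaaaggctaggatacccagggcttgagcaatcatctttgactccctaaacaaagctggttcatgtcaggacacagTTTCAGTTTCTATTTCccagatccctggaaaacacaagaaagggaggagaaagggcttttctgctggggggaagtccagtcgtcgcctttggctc
A second Gbp3 window in the table held none of the motifs searched.

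Of the 17 genes that passed higher in PGK, 14 had a RefSeq window, 18 windows in all, and the interferon response element core was in 3 of these (16.7%), those of the Gbp genes, against 2.84% of the 14727 windows of all autosomal genes tested. TTCNNNGAA, the core of the gamma-activated site, was in 3 of the 18 (16.7%), those of Esrrb, T and Camk1d, against 6.70% of all windows. Both motifs were chosen after the expression values were seen. GGGNGTGG was in 6 of the 18 (33.3%) against 23.3% of all, GGATTA in 2 (11.1%) against 5.70%, and CAAGGTCA, bound by Esrrb, in 1 (5.56%), a window of Tfpi, against 1.21%. The Tfcp2l1 motif, CCAG repeated after 6 bases, was in 0 of the 18 against 3.79% of all. With 18 windows each match moves a share by several points, and a match is no evidence that a factor binds there.

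The wider interferon list was counted whole and does not hold the Gbp genes, which were named because they passed. Ifitm1, an interferon-induced membrane protein that is also expressed in the early epiblast and germ cells (chr7:140967221-140969825, plus strand), was the 1 of 27 to pass, with 43.1 and 59.0 CPM in PGK against 1.77 and 5.44 CPM in E14 (4.10, SE 0.71, adjusted p = 0.0199). It fell in E14 from day 0 by 6.30 on the log2 scale (adjusted p = 4.09e-05) and changed by 0.10 in PGK (adjusted p = 0.957), and the difference of 6.40 passed (SE 0.93, adjusted p = 0.014). At day 0 its level had been the lower one in PGK, 23.6 and 70.9 CPM against 110 and 389 CPM in E14 (−2.30, adjusted p = 0.108). In 13 of the 27 (48.1%) both PGK libraries were above both E14 libraries and in 1 (3.7%) below, against 20.2% and 14.6% of all autosomal genes. Within diff2 19 (70.4%) were higher in PGK, against 48.35% of all, with median log2 differences of 0.43 and 0.00. Within diff3 16 (59.3%) were, against 54.98%, with medians of 0.13 and 0.09, so diff3 was close to all genes. The median was 1.32 on the log2 scale, or 1.24 with the 3 genes near the floor left out and the 1 other gene at 0 in a line at its bound. Irf1 had 147 and 64.2 CPM in PGK against 53.02 and 27.2 CPM in E14 (1.37, adjusted p = 0.405), without overlap. Isg15, among the strongest interferon-induced genes in most cells, stayed under 1 CPM in all 4 libraries.

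The other genes that passed higher in PGK were of varied kinds. Exoc6b, a subunit of the exocyst that tethers secretory vesicles, had 115 and 221 CPM in PGK against 26.6 and 36.1 CPM in E14 (2.45, SE 0.37, adjusted p = 0.00833). It fell by 2.45 on the log2 scale in E14 (adjusted p = 0.000268) and had a log2 fold change of 0.12 in PGK (adjusted p = 0.898), and the difference of the changes, 2.57, did not pass (adjusted p = 0.0662) but did with the experiment as a block (2.51, adjusted p = 0.032). Ephx2, soluble epoxide hydrolase, had 79.5 and 40.2 CPM in PGK against 4.197 and 1.98 CPM in E14 (4.13, SE 0.67, adjusted p = 0.0134), and the difference of its changes of 6.01 passed (SE 0.89, adjusted p = 0.014). Atp11a, a phospholipid flippase, had 59.5 and 48.4 CPM in PGK against 12.5 and 3.96 CPM in E14 (2.59, SE 0.45, adjusted p = 0.0209), with a difference of changes of 3.43 that passed as well (SE 0.61, adjusted p = 0.0454). Exoc6b, Ephx2 and Atp11a had overlapping or lower levels in PGK at day 0 and gave no call there. Ephx2 later fell in PGK too, to 3.04 and 3.39 CPM at day 10, against 2.83 and 3.33 CPM in E14.

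Camk1d, a calcium and calmodulin-dependent kinase, had 65.3 and 26.6 CPM in PGK against 5.82 and 1.98 CPM in E14 (3.40, adjusted p = 0.0141). Tfpi, the inhibitor of tissue factor in coagulation, had 41.0 and 24.98 CPM in PGK against 3.53 and 3.46 CPM in E14 (3.23, adjusted p = 0.0123). Both fell in E14 by day 4, Camk1d with a log2 fold change of −4.47 (adjusted p = 7.25e-05) and Tfpi with −3.58 (adjusted p = 0.000199), and their changes of −0.46 and −1.03 in PGK did not pass. The difference of the changes passed for neither, with 4.013 for Camk1d (adjusted p = 0.0539, or 0.0373 with the block) and 2.55 for Tfpi (adjusted p = 0.236). Laptm5, a lysosomal protein best known from blood cells, had 28.7 and 10.7 CPM in PGK against 1.55 and 0 CPM in E14 (4.07, adjusted p = 0.0283). Grhl3 is a grainyhead transcription factor of epithelia. In E14 it had 0.589 and 0.495 CPM, from 8 counts and 1 count, against 14.2 and 9.45 CPM in PGK (4.36, adjusted p = 0.0143). Both of these fell in both lines, Laptm5 with log2 fold changes of −3.22 in PGK (adjusted p = 0.00269) and −7.68 in E14 (adjusted p = 1.31e-05), and Grhl3 with −1.91 in PGK (adjusted p = 0.0349) and −6.28 in E14 (adjusted p = 3.93e-05). The differences of these changes did not pass, with 4.46 for Laptm5 (adjusted p = 0.0853) and 4.37 for Grhl3 (adjusted p = 0.0812, or 0.0355 with the block).

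S100a10, the partner of annexin A2 at the plasma membrane, rose in PGK by 1.93 on the log2 scale from day 0 to day 4 (adjusted p = 0.0104) and had a log2 fold change of −0.26 in E14 (adjusted p = 0.752); the difference of the changes, 2.19, did not pass (SE 0.64, adjusted p = 0.319). It had 141 and 262 CPM in PGK against 22.2 and 48.5 CPM in E14 at day 4 (2.56, adjusted p = 0.0324), and 302 and 488 CPM in PGK against 313 and 467 CPM in E14 at day 10. The lines thus overlapped again at day 10. Gm10664, which RefSeq names Apela, encodes a secreted ligand of the apelin receptor. It had 63.0 and 67.7 CPM in PGK against 11.9 and 19.8 CPM in E14 (2.09, adjusted p = 0.0324), and 52.5 and 32.1 CPM in PGK against 78.2 and 64.6 CPM in E14 at day 0. Its call was lost without any one of the 4 day 4 libraries. Without single day 4 libraries, Ephx2, Camk1d, Tfpi, Laptm5 and Grhl3 lost their calls without PGK diff2, E14 diff2 or E14 diff3. S100a10, Exoc6b and Ifitm1 lost theirs without PGK diff3, E14 diff2 or E14 diff3, and Atp11a without PGK diff2 or E14 diff3.

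Metabolic genes leaned the other way. None of the 21 genes of glycolysis and glucose transport passed, but both PGK libraries were below both E14 libraries in 11 (52.4%) and above in 1, against 14.6% and 20.2% of all autosomal genes, and the median log2 fold change was −0.59. Hk2, the inducible hexokinase, had 72.6 and 157 CPM in PGK against 231 and 288 CPM in E14 (−1.17, adjusted p = 0.525). Slc2a3, the glucose transporter Glut3, had 343 and 120 CPM in PGK against 362 and 1523 CPM in E14 (−2.03, adjusted p = 0.256), with E14 diff3 far above the rest. Aldoa, an aldolase, had 1209 and 956 CPM in PGK against 1525 and 1584 CPM in E14 (−0.52, adjusted p = 0.911). These were without overlap, and the list's median was −0.12 at day 0 and −0.81 at day 10. Genes of serine synthesis and amino acid stress also lay below in 12 of 24 (50%) and above in 3, with a median of −0.40. Within diff2 5 of the 24 (20.8%) were higher in PGK and within diff3 10 (41.7%) were, with median log2 differences of −0.63 and −0.13. Over all autosomal genes 48.35% and 54.98% were higher, with medians of 0.00 and 0.09. The list's mean level in log2(CPM + 1) overlapped between the lines, at 6.13 and 6.38 in PGK against 6.59 and 6.08 in E14. Asns, asparagine synthetase, had 298 and 489 CPM in PGK against 667 and 804 CPM in E14 (−0.90, adjusted p = 0.839).

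None of the genes of the p53 and apoptosis list passed. Both PGK libraries were above both E14 libraries in 13 of 21 (61.9%) and below in 1 (4.76%), against 20.2% and 14.6% of all autosomal genes. The list's median was 0.51 at day 4, −0.12 at day 0 and −0.29 at day 10. Cdkn1a, the cell cycle inhibitor p21, had 137 and 114 CPM in PGK against 43.2 and 41.6 CPM in E14 (1.57, adjusted p = 0.105). Mdm2, the ligase that degrades p53, had 352 and 344 CPM in PGK against 168 and 130 CPM in E14 (1.22, adjusted p = 0.395). Trp53 itself had 265 and 220 CPM in PGK against 193 and 152 CPM in E14 (0.49, adjusted p = 0.913). The members named for this list and the metabolic lists were chosen after their values were seen.

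**Figure D5:**
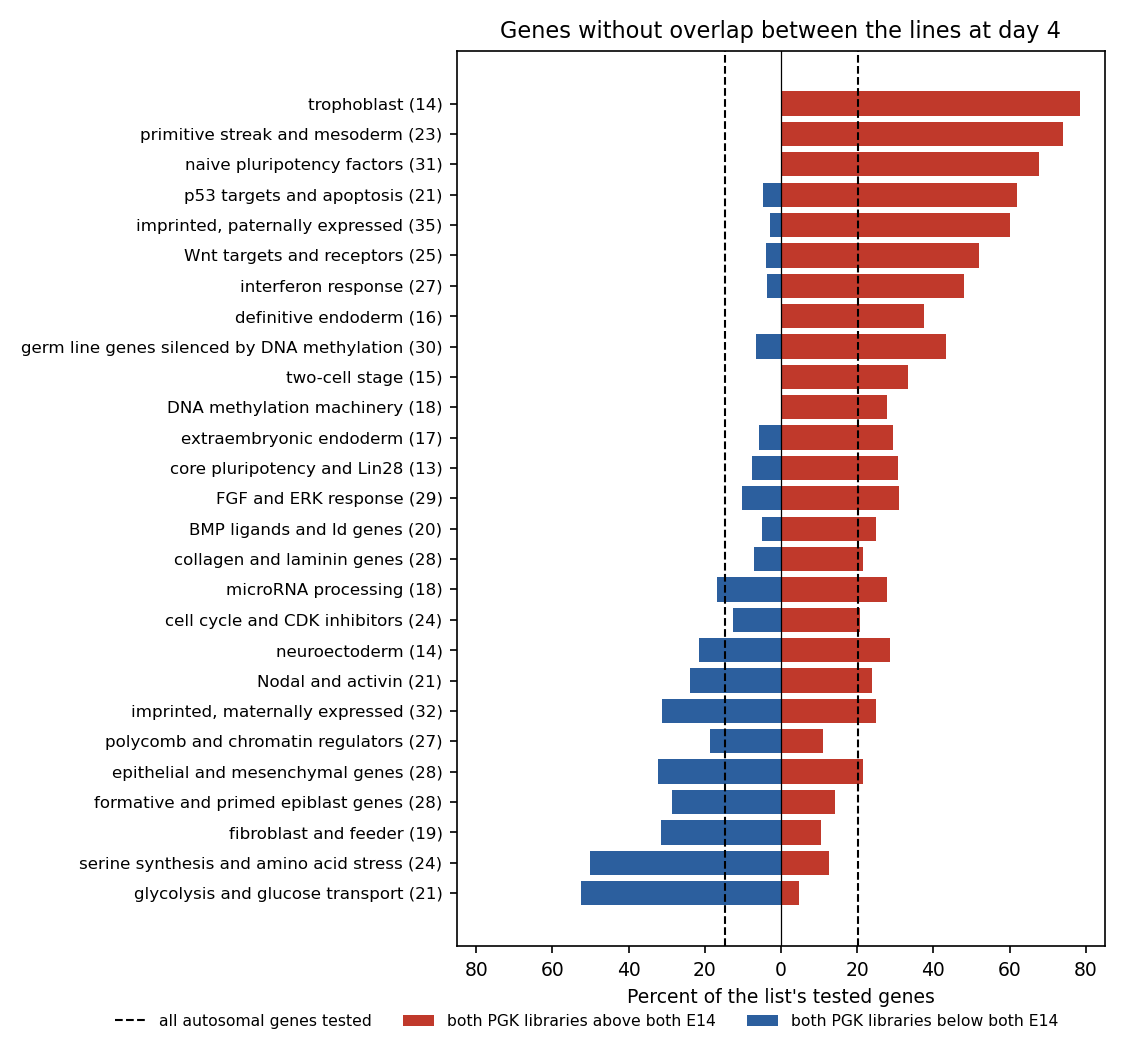
Percent of each list's tested autosomal genes (number in brackets) with both PGK libraries above both E14 libraries (red, to the right) or below them (blue, to the left) at day 4; dashed lines mark the shares over all autosomal genes tested, 20.2% above and 14.6% below. Trophoblast, streak and naive lists reach furthest to the right (78.6%, 73.9% and 67.7%), glycolysis and serine lists furthest to the left (52.4% and 50%).

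Markers of other cells were examined for what else the dishes held. The trophoblast list had 11 of 14 genes (78.6%) above without overlap and 0 below, with a median of 2.04, or 1.72 with genes at 0 in a line at their bound or, near the floor, left out, but it shares Eomes and Cdx2 with the streak list and its defining members were near the floor. Among autosomal genes with a mean under 10 CPM, 26.7% lie above and 11.8% below, against 20.2% and 14.6% of all. Such a mean was found for 11 of the 14 trophoblast, 14 of the 23 streak and 15 of the 27 interferon genes. It was also found for 13 of the 19 fibroblast and feeder, 13 of the 17 extraembryonic endoderm and 12 of the 14 neuroectoderm genes. Cdx2 had 0.14 and 0.685 CPM in PGK and no count in E14, and Elf5 had 0.0701 CPM in PGK diff2 and no count elsewhere. Of the 19 fibroblast and feeder genes tested 2 (10.5%) lay above and 6 (31.6%) below. The summed level of the whole list was 332 and 591 CPM in PGK and 288 and 429 CPM in E14, and Fap and Lum were at 0 in all 4 libraries. Extraembryonic endoderm genes had 5 of 17 (29.4%) above and 1 (5.88%) below, and the whole list's summed level was 531 and 692 CPM in PGK against 496 and 664 CPM in E14. Neuroectoderm genes had 4 of 14 (28.6%) above and 3 (21.4%) below, with sums of 251 and 671 CPM in PGK and 387 and 549 CPM in E14. Sums of these 3 lists overlapped between the lines, and their part in the results was not tested. None of the 15 two-cell stage genes tested passed, and 14 had a log2 fold change above 0. Without overlap 5 (33.3%) lay above and 0 below, and 13 of the 15 had a mean under 10 CPM. The median was 1.22 at day 4 and −0.62 at day 0. The whole list's summed level was 163 and 79.2 CPM in PGK against 67.8 and 65.3 CPM in E14, and its part was not tested either. In 30 germ line genes that DNA methylation silences, 13 (43.3%) lay above and 2 (6.67%) below, with a median of 0.96 at day 4 and 1.41 at day 0. A mean under 10 CPM was found for 16 of the 30. Within diff2 27 (90%) were higher in PGK, against 48.35% of all autosomal genes. Within diff3 19 (63.3%) were, against 54.98%. The median log2 differences were 1.11 in diff2 and 0.34 in diff3. Sycp3, a synaptonemal complex gene, was the clearest exception with 39.6 and 24.4 CPM in PGK against 108 and 289 CPM in E14 (−2.63, adjusted p = 0.281).

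The X-linked genes give the setting of the autosomal result. Their median log2 fold change between PGK and E14 was 1.28 at day 0, 0.39 at day 4 and −0.00 at day 10 over 621 genes tested, while the autosomal medians were 0.12, 0.03 and −0.04. Lines differed at 51 autosomal genes at day 0 (0.34%), 19 higher and 32 lower in PGK, and at 2 at day 10 (0.0133%). Within lines, 1537 autosomal genes changed by day 4 in PGK (10.2%), 956 higher (6.37%) and 581 lower, and 2292 in E14 (15.3%), 1260 higher (8.39%) and 1032 lower. These counts come from comparisons of unequal depth, and the shares lower at day 4, 3.87% in PGK and 6.87% in E14, were not compared by a test.

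The difference between the lines' changes from day 0 to day 4 passed for 10 autosomal genes (0.0666%), with a positive sign, PGK minus E14, in 6 (0.0399%) and a negative one in 4 (0.0266%), and at an unadjusted p under 0.05 for 7.05%. Those with a positive difference were T, Ifitm1, Ephx2, Gbp2, Atp11a and Lgals1, and of these all but Lgals1 also passed at day 4; both comparisons use the day 4 libraries. Lgals1, the galactoside-binding protein galectin-1, had 108 and 61.9 CPM in PGK against 47.4 and 38.1 CPM in E14 at day 4 (0.98, adjusted p = 0.396), after 20.0 and 13.9 CPM in PGK against 59.0 and 69.3 CPM in E14 at day 0. Of the 4 with a negative difference, Moxd1, Sema5a and Uggt2 gave no call at day 4 and were low in E14 at day 0. With the experiment as a block the difference passed for 24 genes, among them all 10, Esrrb, Gbp1, Grhl3, Camk1d, Exoc6b and Gm10664.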

How the data were processed

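The deposited raw counts per gene, 1 table for each line, were joined on the gene name. The submitters' processing notes list CASAVA 1.8.2, Cuffdiff, DESeq2 and the GRCm38 (mm10) build but give no step for any of them. No source used here names the aligner, the gene annotation or whether counting used strand. Deposited normalized and variance-stabilized tables were not used, because they were made separately for each line. Chromosomes came from GENCODE M21 by symbol for 21703 names and from RefSeq by symbol or synonym for 207 and 1289; 162 had none.

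Counts of all 20 libraries in 10 groups of 2 were fitted together with edgeR 4.0.16 (R 4.3.3), after TMM scaling, with genes kept by filterByExpr (minimum count 10) and a robust quasi-likelihood fit with 10 residual degrees of freedom (common biological coefficient of variation 0.485). P-values were adjusted by Benjamini-Hochberg over all 15732 genes tested on every chromosome, at a threshold of 0.05. CPM are the counts scaled to the library's total, and a bound uses 3 counts over the group. The scripts were tested on simulated data. Intervals and floors cover counting error only.

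The labels name the differentiation experiment of each library. The main fit used group means and did not pair libraries. Libraries of both lines were paired by experiment only in the fit with the block and in the descriptions within an experiment. Deviations of same-experiment libraries from their group means correlated at 0.418 at day 4 and 0.24 at day 0. The labels do not say whether experiments were separate cultures in every respect, so p-values measure the spread between these libraries. A fixed set of genes is always named, with up to 3 genes that passed per list and the 10 largest rises and falls that passed at 1 log2 CPM or more, without predicted genes; Exoc6b, Gm10664 and list members that did not pass were named after their values were seen. Single-gene results for 2 genes are not reported here. The members and the gene lists were chosen with earlier results of these data known. Alternatives were other size factors, no filter, DESeq2 1.42.0, the block, a term for the library code, thinned libraries, only the groups compared, and each library left out.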

Additional observations from a re-analysis of the deposited data

Results flagged for a closer look

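The change from day 0 to day 4 differed between PGK and E14 by edgeR's quasi-likelihood test of the difference itself (Benjamini-Hochberg adjusted p under 0.05) for 10 autosomal genes, each given as the change in PGK minus the change in E14 on the log2 scale. The difference was 8.71 for T, 6.40 for Ifitm1, 6.01 for Ephx2, 5.27 for Gbp2, 3.43 for Atp11a and 2.83 for Lgals1. T rose in PGK alone, Gbp2 rose more in PGK, and Ifitm1, Ephx2 and Atp11a fell in E14.

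Moxd1, Sema5a and Uggt2 passed between the lines at day 0 and not at day 4. The difference was −14.15 for Moxd1, a monooxygenase of the secretory pathway, which had 49.1 and 81.6 CPM in PGK and no count in E14 at day 0, and 5.12 and 8.45 CPM in PGK against 12.6 and 13.9 CPM in E14 at day 4; its fitted value depends on the prior count and is no bound. It was −7.14 for Sema5a, a semaphorin, and −4.73 for Uggt2, a sensor of glycoprotein folding. Uggt2 had 26.7 and 45.5 CPM in PGK against 1.42 and 0.592 CPM in E14 at day 0, and 22.0 and 26.03 CPM in PGK against 17.5 and 21.3 CPM in E14 at day 4. Lgals1 and these 3 genes were named after their values were seen. The E14 day 0 group includes the shallow diff3 library; without it 5 genes passed, 4 of them among the 10, and without the shallow E14 diff3 library of day 4 1 passed, which was among the 10.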

How the results depend on the processing

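At day 4 (18 genes in the fit of all 20 libraries), 55 autosomal genes passed with no low-count filter, 33 with the replicate block, 52 with a library code term, 1 with only the groups compared (none of the 18), 7 without both shallow libraries (chosen after seeing the data) and 200 with DESeq2, and 2 to 24 without single libraries. All 18 were kept with the block, the code term, autosomal size factors and DESeq2, 17 with RLE factors, 16 with no filter and 12 after thinning. The difference of changes (10 genes) passed for 46 with no filter, 24 with the replicate block, 29 with the code term, 0 with only the groups compared (edgeR, 428 at an unadjusted p under 0.05), 1 without both shallow libraries, 169 with DESeq2 and 1 to 2201 without single libraries; the 2201 arose without E14 diff2 of day 0, which leaves E14 diff3 alone there. At day 0 (51 genes) they were 117 with no filter, 122 with the code term, 3 with only the groups compared, 23 without both shallow libraries, 555 with DESeq2 and 15 to 3097 without single libraries, the highest without the same library. At day 10 (2 genes) they were 5 with no filter, 5 with the replicate block, 9 with the code term, 0 with only the groups compared (edgeR, 446 at an unadjusted p under 0.05) and 60 with DESeq2, and 4 to 8 without single libraries. Day 4 against day 0 gave 992 genes in PGK with only its groups, 2405 with DESeq2 and 745 to 1006 without single libraries; in E14 it gave 534 with only its groups, 3555 with DESeq2, 1070 without both shallow libraries and 1296 to 4893 without single libraries. The median of genes that fell by day 10 was 0.16 after thinning and 0.00 to 0.62 without single libraries, and that of genes that rose was −0.14 to 0.10. Signs reversed without single libraries for Dnmt3b (range −0.99 to 0.064, the highest without E14 diff2), Pou5f1 (−0.21 to 0.53, with −0.06 without PGK diff2 and −0.21 without E14 diff3 or both shallow libraries), Sox2 (−0.071 to 1.46, the lowest without PGK diff2) and the difference of changes of Gbp1 (−1.04 to 7.03, the lowest without E14 diff2 of day 0). The causes were not tested. Plagl1 and Gbp2 passed at day 4 in every alternative but the fit of only the groups compared. The replicate block lost no call of a named gene and added Klf5 and Tfcp2l1 at day 4 and 6 differences of changes, named in the account of that comparison. Depth limits E14 diff3 most, where 1 count is 0.495 CPM.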
